A study of Mus musculus with 211 samples.

Results

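The 10 genes described here are 2 glucose carriers (*Slc2a1*, *Slc2a3*), 2 hexokinases (*Hk2*, *Hk3*), 5 further enzymes of glycolysis (*Pfkl*, *Gapdh*, *Pgk1*, *Eno1*, *Pkm*) and the enzyme that turns pyruvate into lactate (*Ldha*). They were taken by name, with earlier results of these data known, and found by Ensembl identifier, and they are 10 of the 48709 genes in the count table, and all 10 had reads. The reads come from 211 single cells of adult mouse cochleae, 48.3% of them from P60 mice and 51.7% from P120 mice. All mice were CD1 animals carrying Lfng-EGFP, a bacterial artificial chromosome transgene in which regulatory DNA of *Lfng* drives EGFP. Neither age was treated, both carried the transgene, and no EGFP-negative or wild-type group was compared here. GFP+ cells had been purified by FACS, loaded on a Fluidigm C1 chip and sequenced as full-length cDNA of their polyA RNA. The cells fall into 12 captures that the tables name by isolation: 9c, 10c, 17c, 19c, 20c, 21c, 31 and 40 at P60, and 28, 32, 36 and 38 at P120. Each capture pooled several animals, so the capture, not the cell, was the replicate, with 8 captures at P60 and 4 at P120.

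Glycolysis splits glucose into pyruvate in the cytosol and yields ATP without oxygen. Glucose enters through carriers of the SLC2 family, hexokinase traps it as glucose 6-phosphate, phosphofructokinase commits it to the pathway, and lactate dehydrogenase restores the NAD+ that *Gapdh* consumes. Both pairs compared below hold alternatives for one step: *Slc2a1* (GLUT1) is the carrier of many barrier and blood cells and *Slc2a3* (GLUT3) a high-affinity carrier of neurons and leukocytes, while *Hk2* is an inducible, mitochondria-bound hexokinase and *Hk3* a form known from myeloid cells. Supporting cells are the non-sensory cells around cochlear hair cells. Neutrophils are known to draw most of their ATP from glycolysis.

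All 211 cells are labelled adult cochlear supporting cells, but the marker lists went against that label in most of them. The 14 supporting cell genes together took 0.0339% of reads, and only 4 cells, from captures 21c and 28, had 10 or more reads on at least 3 of them. The 10 neutrophil genes took 15.6% of reads, and 197 cells had 10 or more reads on at least 3 of these. The summed neutrophil level ran from 21318 to 256947 reads per 1000000 reads on genes (CPM) over P60 captures and from 92882 to 156637 over P120 captures, whereas the supporting cell level ran from 29.2 to 12419 and from 22.4 to 125.7. Capture 21c held the highest of these supporting cell levels. No new name is given to the cells here, and they are called sorted cells. The depth of a cell lay between 41 and 5361476 reads on genes (median 736455), and the median of capture 10c was 451. Shares of cells at equal depth were therefore taken without the 47 cells that had under 50000 reads, each other cell being thinned to 50000 reads.

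The 10 genes together took 0.340% of all reads on genes. Per kilobase of the longest coding transcript, *Gapdh* had the highest level, 414.6 ± 243.1 reads per kilobase and 1000000 reads (RPKM; SD, n = 12 captures). *Pkm*, which encodes the pyruvate kinase of most adult tissues, followed with 239.4 ± 126.9, then *Eno1* (enolase) with 191.7 ± 144.4 and *Ldha* with 166.2 ± 154.8. *Slc2a3* had 78.4 ± 70.1, *Pgk1* (phosphoglycerate kinase) 58.2 ± 50.9, *Hk2* 45.7 ± 63.6 and *Hk3* 39.5 ± 44.9 RPKM. *Slc2a1* had 4.79 ± 10.2 and *Pfkl*, the liver-type phosphofructokinase, 0.417 ± 0.796 RPKM. None of the 9 neighbours in this order differed beyond the spread between captures in exact two-sided sign-flip permutation tests: the lowest adjusted p were 0.0703 for *Gapdh* over *Pkm* (higher in 9 of 12 captures) and 0.0835 for *Hk3* over *Slc2a1* (10 of 12), and the others were 0.211 or more. The levels of *Gapdh* and *Eno1* are uncertain, because near-identical copies of *Gapdh* held 55199 reads beside its own 149332 (26.99% of both), and 3 copies of *Eno1*, *Eno1b* among them, held 27484 beside 97945 (21.9%). Copies of the other members held at most 0.457% of the reads on the member and its copies.

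The share of cells with a read followed a similar order. *Pkm* had at least 1 read in 176 of 211 cells (83.4%, exact Clopper-Pearson 95% interval from 77.7 to 88.2), *Gapdh* in 77.7%, *Ldha* in 66.4%, *Slc2a3* in 62.6%, *Eno1* in 59.7%, *Hk2* in 52.6%, *Hk3* in 48.3% and *Pgk1* in 43.6%. *Slc2a1* had a read in 27 cells (12.8%, interval from 8.6 to 18.1) and *Pfkl* in 13 (6.16%, from 3.32 to 10.3). At equal depth these shares were 78.0% for *Pkm*, 68.3% for *Gapdh*, 52.4% for *Eno1*, 50.6% for *Ldha*, 37.8% for *Hk2*, 36.6% for both *Slc2a3* and *Hk3*, 32.3% for *Pgk1*, 8.54% for *Slc2a1* and 4.27% for *Pfkl*. *Slc2a3* thus moved from the fourth place to a tie for the sixth, and its median level among the deeper cells with a read was 15.2 CPM against a highest cell of 7313 CPM. *Gapdh*, by contrast, had a median of 397.0 CPM in such cells. The intervals cover counting error only, since the reads carry no molecular identifiers. At 50000 reads a thinned cell had a median of 4 of the 10 genes with a read, 10 cells had none, 70 had 5 or more, and no cell had more than 8.

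Few cells carried much of each gene's signal. The cell with most *Slc2a1* reads, from capture 31, held 47.9% of them, and 2 cells held over 50%. That same cell held the most *Hk2* reads of any cell, 22.2% of the total, and 3 cells held over 50% of *Hk2*. It was also the deepest cell, with 5361476 reads on genes, and these shares of reads are not corrected for depth. Relative to depth, other cells were highest, with 1841 CPM of *Slc2a1* in a cell of capture 28 and 4282 CPM of *Hk2* in one of capture 32. A single cell of capture 32 held 56.4% of the 546 *Pfkl* reads. For *Slc2a3* 5 cells held over 50%, for *Pgk1* 8 and for *Hk3* 9, while for *Ldha*, *Eno1*, *Pkm* and *Gapdh* it took 13 to 16 cells.

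The carriers lie on different chromosomes of GRCm38. *Slc2a1* (ENSMUSG00000028645.11) spans chr4:119108711-119137983 on the plus strand and *Slc2a3* (ENSMUSG00000003153.10) chr6:122727809-122801640 on the minus strand. *Slc2a1* read 0 to 113.9 CPM over the 8 P60 captures with a median of 0.486, its 3 highest values lying in 21c (113.9), 31 (39.2) and 9c (18.3). At P120 it read 14.4 CPM in capture 28, 0.449 in 32, 0 in 36 and 0.0764 in 38. The captures of the ages overlapped, and at each age most captures were near 0. *Slc2a3* read 0 to 636 CPM at P60 with a median of 254.5, being at 0 in 10c and 17c, and at P120 848 CPM in 28, 492 in 32, 125.5 in 36 and 48.5 in 38. These ranges overlapped as well. Of the 4 cells with 3 or more supporting cell genes, 3 had a *Slc2a1* read (75.0%, interval from 19.4 to 99.4), against 24 of all other cells (11.6%, from 7.57 to 16.8), and those 4 cells held 19.8% of all *Slc2a1* reads. Whether these genes bear on the *Slc2a1* level was not tested.

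The cells with a carrier read mostly showed *Slc2a3*. Of all 211 cells, 113 had reads of *Slc2a3* alone, 8 of *Slc2a1* alone, 19 of both and 71 of neither. At equal depth the counts were 53, 7, 7 and 97 cells. Among 59 cells with 20 or more reads on the pair, *Slc2a3* made up 90% or more of the per-length level in 50 and 10% or less in 7, leaving 2 between. Summed over all cells *Slc2a3* made up 96.7% of the pair, and 98.3% without the cell that held most *Slc2a1* reads. By capture it was 79.4% in 9c, 82.1% in 21c, 91.04% in 31 and 97.98% or more in the other 7 captures with 20 reads on the pair. The share averaged 92.0% ± 9.41 at P60 (SD, n = 6) and 99.4% ± 0.965 at P120 (n = 4), a difference of 7.39 percentage points (4.86 to 8.98 when a capture was left out, the lowest without 9c). This difference did not pass an exact two-sided permutation test (p = 0.229, adjusted over the 6 share tests p = 0.571). Even the smallest p that these captures allow would not pass that adjustment by itself. All captures under 95% were P60 captures, and 21c and 9c were sequenced in a run that held P60 cells alone, so age and run cannot be told apart for them. Counted by cells, 21c went the other way from its share of 82.1%. There *Slc2a1* had a read in 60% of the 5 cells and *Slc2a3* in 20%, that is, in a single cell with 6631 CPM.

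**Figure D1:**
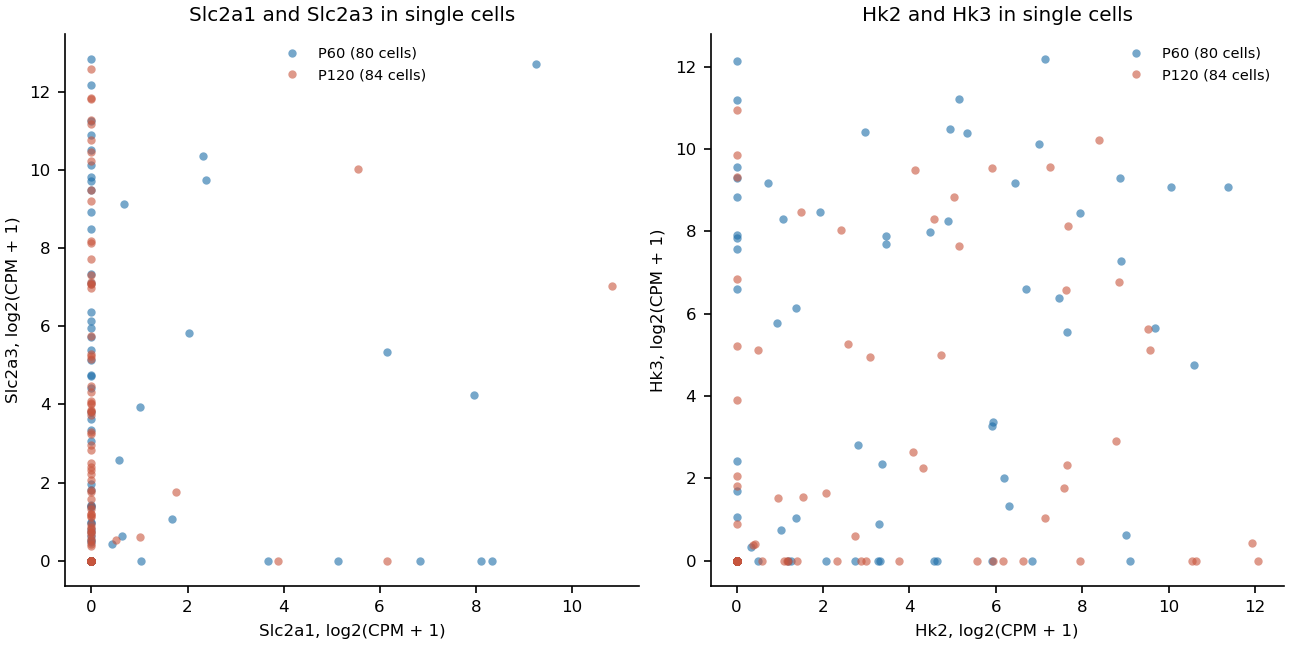
Each point is a cell with at least 50000 reads (80 at P60, 84 at P120); axes give log2(CPM + 1) of *Slc2a1* against *Slc2a3* (left) and of *Hk2* against *Hk3* (right). Most cells with a carrier lie on the *Slc2a3* axis, while the right panel holds cells with both hexokinases beside cells on either axis.

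The study made single-cell PCR assays for *Slc2a3* and *Eno1*, and used the same *Slc2a3* primers for droplet digital PCR of sorted GFP+ cells. It also probed *Slc2a3* RNA in cochlear sections by in situ hybridization. There it reported a signal in all supporting cells, unlike in its single-cell reads. The PCR primers are shown because they name the piece of each transcript that an independent assay would read. Each pair matched transcripts of its own gene and of no other gene in the annotation. The *Slc2a3* pair bounds 76 bases, from position 1597 to 1672 of the longest coding transcript, and the *Eno1* pair 80 bases, from position 1605 to 1684, which the copy *Eno1b* does not share exactly at both primers.
Slc2a3 forward: tctggtcggaatgctcttcc
Slc2a3 reverse: gaggaaggcagcgaagatgata
Eno1 forward: cgcctggccaagtacaatca
Eno1 reverse: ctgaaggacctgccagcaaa

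The hexokinases were detected together far more often than the carriers. *Hk2* (ENSMUSG00000000628.10) spans chr6:82725025-82774454 and *Hk3* (ENSMUSG00000025877.14) chr13:55005985-55021385, both on the minus strand. *Hk2* read 0 to 1199.5 CPM over P60 captures with a median of 70.4, the top value being that of 17c with its 3 cells, and 390.1 CPM in 28, 467 in 32, 0.877 in 36 and 199.4 in 38 at P120. *Hk3* read 0 to 440.3 CPM at P60 with a median of 58.97, and 101.99 CPM in 28, 154.5 in 32, 0.329 in 36 and 130.5 in 38 at P120. Both hexokinases were near 0 in P120 capture 36, and the ages overlapped for each. Of all cells 73 had reads of both, 38 of *Hk2* alone, 29 of *Hk3* alone and 71 of neither, and at equal depth these counts were 30, 32, 30 and 72. Among 80 cells with 20 or more reads on the pair, 39 had *Hk3* at 90% or more of the per-length level, 22 had it at 10% or less and 19 lay between.

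The *Hk3* share of the pair varied widely between captures. It was 99.9% in 20c, 88.8% in 40, 84.4% in 9c, 44.9% in 31, 26.9% in 19c and 2.80% in 17c at P60, and 52.9% in 38, 36.2% in 32 and 30.9% in 28 at P120. Some of the P60 shares rest on very few cells. In 17c a single cell had all reads on the pair, with 1541 CPM of *Hk2* and 25.9 of *Hk3*. In 19c a single cell, with 46.2 CPM, had all *Hk3* reads. In 20c the highest cells for *Hk3* had 633.8 and 54.2 CPM, and the rest had at most 4.32. The mean shares were 57.95% ± 38.9 at P60 (SD, n = 6) and 40.0% ± 11.5 at P120 (n = 3). The difference of -18.0 points (-29.0 without 17c, -9.58 without 20c) did not pass the exact permutation test (p = 0.476, adjusted p = 0.571). Here too the smallest p that the captures allow would not pass the adjustment by itself. The spread among P60 captures alone covered the P120 values.

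**Figure D2:**
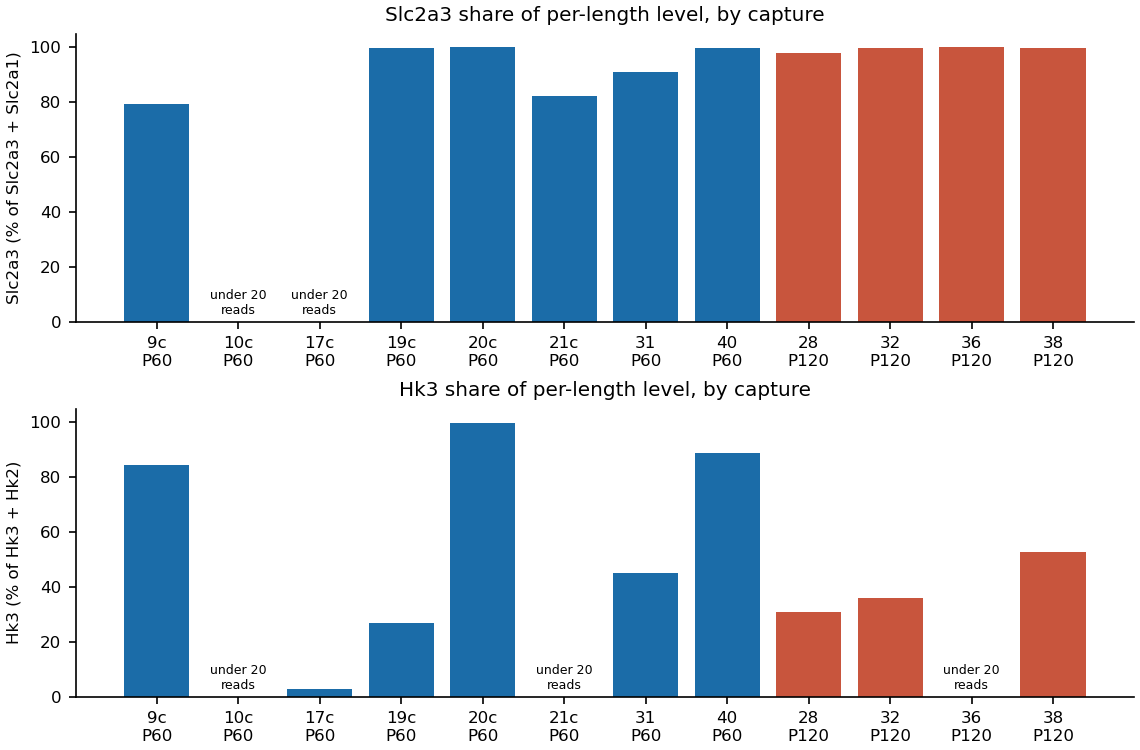
Bars give *Slc2a3* as a percentage of *Slc2a3* plus *Slc2a1* (top) and *Hk3* as a percentage of *Hk3* plus *Hk2* (bottom), each on reads divided by transcript length, for each capture (P60 blue, P120 red). The carrier share is above 79% in all 10 captures with 20 reads. The hexokinase share runs from 2.80%, where a single cell had all reads on the pair, to 99.9%.

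The start-site windows of *Slc2a1*, *Hk2* and *Hk3* are shown because these genes form the compared pairs and because glycolysis genes are textbook targets of hypoxia-inducible factor, whose response element has the core ACGTG or GCGTG. The RefSeq table for GRCm38.p6 gives 250 bases before and 50 after the start, and holds 13 windows for 9 of the 10 members, with no entry matched for *Slc2a3*. Capitals mark the core on the printed strand or, as CACGT or CACGC, on the other strand, and overlapping matches were counted separately. The *Slc2a1* window is chr4:119108495-119108794 (plus strand), the *Hk2* window chr6:82774405-82774704 (minus) and the *Hk3* window chr13:55021336-55021635 (minus).
Slc2a1: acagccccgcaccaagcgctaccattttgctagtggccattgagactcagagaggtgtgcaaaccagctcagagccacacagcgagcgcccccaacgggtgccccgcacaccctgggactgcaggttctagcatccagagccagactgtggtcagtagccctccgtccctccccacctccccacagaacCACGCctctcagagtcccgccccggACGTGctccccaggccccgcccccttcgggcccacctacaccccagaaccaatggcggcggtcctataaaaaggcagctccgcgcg
Hk2: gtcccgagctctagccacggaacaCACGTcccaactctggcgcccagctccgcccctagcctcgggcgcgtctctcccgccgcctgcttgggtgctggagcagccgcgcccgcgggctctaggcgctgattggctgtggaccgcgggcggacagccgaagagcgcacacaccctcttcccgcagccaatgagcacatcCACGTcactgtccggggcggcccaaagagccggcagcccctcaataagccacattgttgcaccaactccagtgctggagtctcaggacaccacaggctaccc
Hk3: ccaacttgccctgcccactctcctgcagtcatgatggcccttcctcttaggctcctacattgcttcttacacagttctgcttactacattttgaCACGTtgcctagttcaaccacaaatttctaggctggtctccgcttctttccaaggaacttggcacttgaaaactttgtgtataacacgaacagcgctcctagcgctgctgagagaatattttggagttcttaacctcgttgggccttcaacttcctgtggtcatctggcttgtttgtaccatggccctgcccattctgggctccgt
The *Slc2a1* and *Hk2* windows held 2 matches each and the *Hk3* window 1. Of the 13 member windows 12 held a match, as did 43.8% of all 32851 windows of this length. The member windows are not independent, since 2 of those of *Eno1* overlap and hold the same matches, and no enrichment was tested. A match describes letters only, and no binding was measured.

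The enzymes after hexokinase were read in nearly all captures, with the exception of *Pfkl* (ENSMUSG00000020277.9, chr10:77986947-78010083, minus strand). *Pfkl* had reads in 5 captures, with 4.38 CPM in 9c, 3.35 in 31 and 1.19 in 40 at P60 and a P60 median of 0, and 9.70 CPM in 32, 0.0452 in 28 and 0 in 36 and 38. *Gapdh* (ENSMUSG00000057666.18, chr6:125161715-125166467, minus), which oxidises glyceraldehyde 3-phosphate, read 25.2 to 1064 CPM at P60 with a median of 707, and 846 CPM in 28, 395 in 32, 272.1 in 36 and 486 in 38. *Pkm* (ENSMUSG00000032294.16, chr9:59656368-59679375, plus) read 16.8 to 977 CPM at P60 with a median of 572, and 590.2 CPM in 28, 725 in 32, 473 in 36 and 990 in 38. The P120 values of both lay within the P60 range, except that *Pkm* in 38 was just above it. The lowest values were those of the shallow capture 10c.

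*Pgk1* (ENSMUSG00000062070.12, chrX:106187100-106203699, plus), which makes the first ATP of the pathway, read 0 to 252.8 CPM at P60 with a median of 90.9, and 165.3 CPM in 28, 49.96 in 32, 154.7 in 36 and 55.1 in 38. *Eno1* (ENSMUSG00000063524.13, chr4:150236721-150248879, plus) read 0 to 1039 CPM at P60 with a median of 392, and 451 CPM in 28, 239.8 in 32, 0.219 in 36 and 530.0 in 38. *Ldha* (ENSMUSG00000063229.15, chr7:46841475-46855627, plus) read 0 to 684 CPM at P60 with a median of 159.9, and 334 CPM in 28, 784 in 32, 52.5 in 36 and 448 in 38. Captures could hold one enzyme without another: 36 had 154.7 CPM of *Pgk1* with 0.219 of *Eno1*, and 19c had 299.8 CPM of *Eno1* with 0.212 of *Pgk1* and 1.27 of *Ldha*. Very few cells gave these values. In 36 the highest cells for *Pgk1* had 641.6 and 106.8 CPM, and the rest had at most 2.65. In 19c a single cell had 2430 CPM of *Eno1*, and the rest had at most 1.16. For all 3 genes the ages overlapped.

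**Figure D3:**
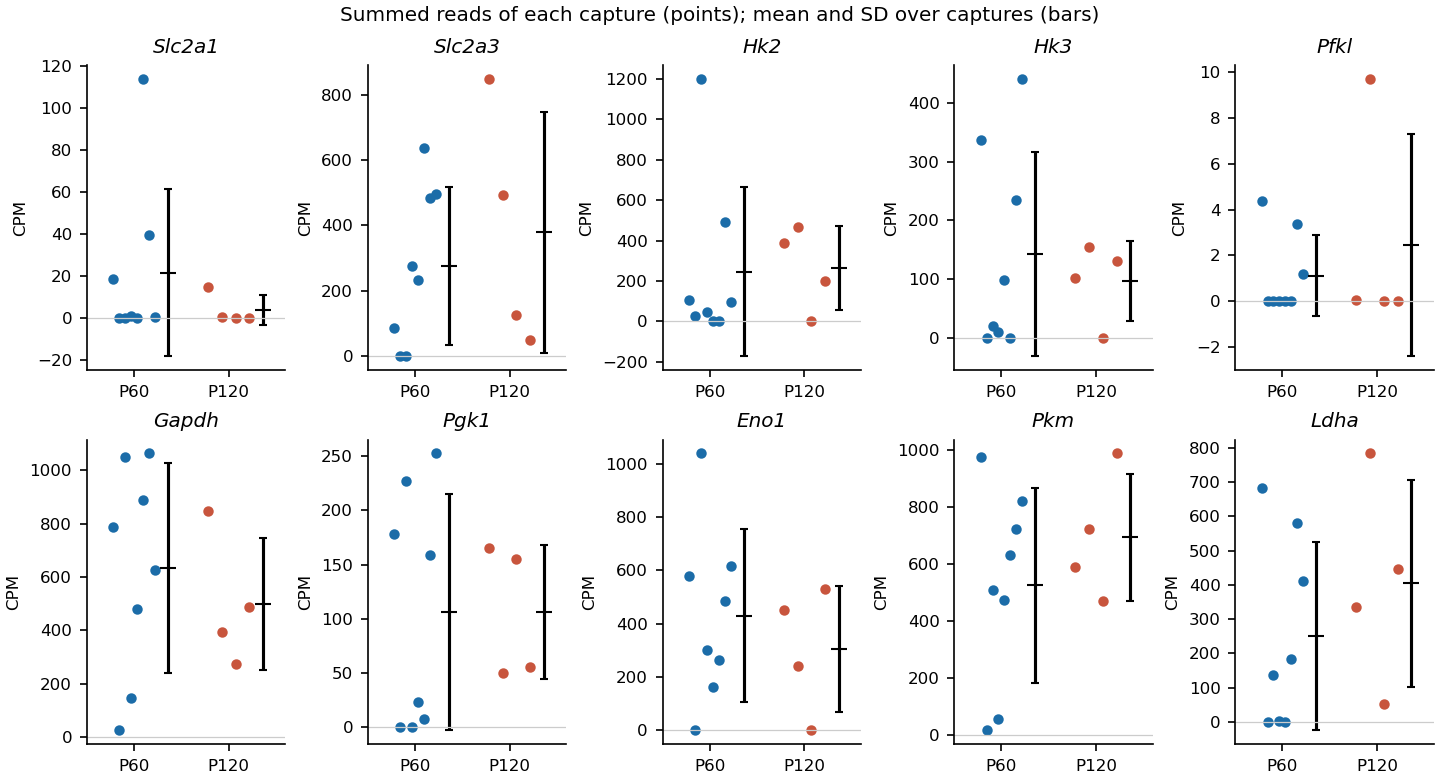
Points give the CPM of each gene in the summed reads of each capture (P60 blue, 8 captures; P120 red, 4 captures), and bars the mean and SD over captures. The ages overlap for all 10 genes, and *Slc2a1*, *Hk2* and *Pfkl* each have a capture far above the rest.

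No member passed the comparison of ages. edgeR's quasi-likelihood test on the summed counts of each capture called 10 of 8346 genes tested at a Benjamini-Hochberg adjusted p under 0.05, or 0.12%, and none of the 10 members, all of which had passed the filter on low counts and had an adjusted p of 1.0. At an unadjusted p under 0.05 there were 443 genes and no member; DESeq2 called 8 of 6416 genes (0.125%) and no member. The fitted log2 difference, P120 over P60, was -3.01 ± 2.60 for *Slc2a1* (SE), 0.78 ± 1.67 for *Pfkl*, 0.73 ± 1.48 for *Ldha*, 0.72 ± 1.37 for *Pkm*, 0.71 ± 1.68 for *Pgk1* and -0.61 ± 1.75 for *Hk3*. The *Slc2a1* value ran from -7.06 without capture 28 to -1.70 without 21c. The difference lay between -0.46 and 0.19 for *Eno1*, *Gapdh*, *Hk2* and *Slc2a3*. The median was 0.13 over the members and 0.26 over all genes tested. SEs above 1 mean that changes smaller than several-fold were not detectable with these captures.

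The other genes of the pathway, listed with earlier results known, gave no call between ages either. Of those tested, 0 of 8 other glycolysis enzymes, 0 of 9 lactate carriers and pyruvate enzymes, 0 of 7 pentose phosphate enzymes, 0 of 6 glycogen genes, 0 of 8 regulators, 0 of 2 enzymes of fructose 2,6-bisphosphate and 0 of 1 other glucose carrier passed, 8 carriers having been listed. Share of cells at equal depth also lay close between the ages: 40% at P60 and 35.7% at P120 for *Hk2*, 36.3% and 36.9% for *Slc2a3*, and 50% and 51.2% for *Ldha*. The widest gaps were those of *Hk3*, 45% (interval from 33.8 to 56.5) and 28.6% (from 19.2 to 39.5), and *Pgk1*, 40% (29.2 to 51.6) and 25% (16.2 to 35.6). Intervals over cells do not include the spread between captures, and for both genes they overlapped.

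The next comparisons set the members against *Mki67*, a nuclear protein of cycling cells, and *Il1b*, which encodes the cytokine interleukin 1 beta. A cell with at least 50000 reads was called positive for either gene at 20 CPM or more, which gave 52 *Mki67*-positive and 112 negative cells, and 96 *Il1b*-positive and 68 negative cells. Counts were summed per class within a capture, and 6 captures (9c, 31, 40, 28, 32, 38) held at least 3 cells of each class for both genes. The classes overlap: 19 cells were positive for both, 33 for *Mki67* alone, 77 for *Il1b* alone and 35 for neither. They also differed in complexity and in other markers. At equal depth the median cell had 2109 genes in the *Mki67*-positive and 864.5 in the negative class, and 843.5 in the *Il1b*-positive and 1812.5 in the negative class. The summed level of the 5 granulocyte precursor genes ran from 2752 to 17511 CPM in *Mki67*-positive and from 12.5 to 15143 CPM in negative sums, with 5 of 5 genes higher, and from 118.6 to 10055 CPM in *Il1b*-positive and 5923 to 16457 CPM in negative sums, with 0 of 5 higher. The 10 neutrophil genes ran from 96415 to 227785 CPM in *Mki67*-positive and from 68504 to 215333 in negative sums, with 2 of 10 higher, and from 73126 to 210333 CPM in *Il1b*-positive and 98149.8 to 277055 in negative sums, with 4 of 10 higher. By edgeR 5 of these 10 were called lower in the *Mki67*-positive class, where 0.521% of all genes tested were called. Their median log2 difference was -1.88, against 0.37 over all genes tested. By *Il1b* the fitted difference was above 0 for 7 of the 10, with a median of 0.83 and no call. The 5 basophil genes ran from 0.34 to 37343 CPM in *Mki67*-positive and from 0.396 to 50612 in negative sums, and from 0.254 to 33332 CPM in *Il1b*-positive and 0.675 to 57112 in negative sums. The fitted log2 difference was above 0 for all 5 in both positive classes, with a median of 3.12 by *Mki67* and 1.82 by *Il1b*, and at P120, with a median of 3.77, without a call, although the mean over *Il1b*-positive sums (9463 CPM) was below that over negative sums (12016). By capture their level was highest in 32 (44201 CPM), followed by 9c with 9120, 38 with 6515 and 28 with 5823, then 10c with 201.3 and at most 19.5 in the rest. No gene of these 3 lists was at 0, and the part of these differences in the results below was not tested.

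Against *Mki67*, *Slc2a3* and *Gapdh* had lower levels in the positive class without passing the threshold. *Slc2a3* read 8.97, 294.6, 175.6, 10.8, 658 and 3.35 CPM in the positive sums of 9c, 31, 40, 28, 32 and 38, and 239.2, 550.4, 724, 1469, 337 and 60.2 CPM in the negative sums. The positive sum was lower in 5 of 6 captures, 32 being the exception, and the classes overlapped. edgeR, with the capture as block, gave a log2 difference of -3.64 ± 1.14 (SE; p = 0.0058, adjusted p = 0.208; adjusted p from 0.0881 to 0.506 when a capture was left out). Without the block it was -2.07 (edgeR, adjusted p = 0.571). With any *Mki67* read taken as positive it was 2.12 (edgeR, adjusted p = 0.55), where the median over all genes was 2.16. *Gapdh* read 632, 524, 321, 709.9, 325 and 556 CPM in the positive sums and 1099, 1253, 845, 951, 459 and 466.1 CPM in the negative sums, lower in 5 of 6 captures, with a log2 difference of -1.32 ± 0.53 (p = 0.024, adjusted p = 0.362).

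The call rate set the scale for these values. edgeR called 38 of 7296 genes (0.521%), and 0 of the 9 members tested, *Pfkl* having failed the filter. DESeq2 called *Slc2a3* (adjusted p = 1.04e-04) and *Gapdh* (adjusted p = 0.0326), but it called 26.5% of all genes in this comparison. The other log2 differences were -2.05 ± 2.70 for *Slc2a1* (-0.67 without capture 31, -3.58 without 40), -1.19 ± 0.63 for *Ldha*, -0.97 ± 1.49 for *Hk2*, -0.80 ± 0.51 for *Pkm*, -0.54 ± 0.90 for *Pgk1*, -0.28 ± 0.57 for *Eno1* and 0.52 ± 0.81 for *Hk3*. Their median, with *Slc2a3* and *Gapdh*, was -0.97, against 0.37 over all genes tested, and 8 of the 9 were below 0. *Il1b* itself was lower in the positive class by edgeR (log2 -3.25 ± 0.48, adjusted p = 0.00595), so the contrasts are not independent of each other. The pathway lists held no call: 7 of 8 other glycolysis enzymes had a negative log2 difference, 5 of 6 glycogen genes did, and 4 of 7 pentose phosphate enzymes had a positive one.

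The share of cells did not follow the level for *Slc2a3*. At equal depth the mean over the 6 captures was 39.4% ± 21.3 of *Mki67*-positive and 40.0% ± 21.4 of negative cells (SD), whereas the summed level was lower in the positive class of 5 of 6 captures. *Hk2* had a read in 60.7% ± 14.2 of positive and 33.6% ± 15.6 of negative cells, higher in 5 of 6 captures. *Ldha* had a read in 73.8% ± 20.1 and 47.4% ± 19.4, *Gapdh* in 86.3% ± 10.97 and 69.6% ± 19.7, and *Hk3* in 55.2% ± 18.8 and 37.9% ± 21.3, higher in 5, 5 and 4 of 6 captures. Over the same captures the median number of genes was 2319 ± 485 in positive and 959.7 ± 255.6 in negative cells, higher in 6 of 6. The differences in share were given no test of their own.

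Against *Il1b*, both carriers had their largest differences. *Slc2a3* read 276.6, 187.1, 3574, 1785, 900.3 and 78.5 CPM in the positive sums of 9c, 31, 40, 28, 32 and 38, and 3.15, 1162, 103.4, 281.4, 8.87 and 0.838 CPM in the negative sums. It was higher in the positive sum of 5 of 6 captures, 31 going the other way, and the log2 difference was 5.33 ± 1.28 (edgeR; p = 9.26e-04, adjusted p = 0.196). Without the capture as block it was 2.52 (edgeR, adjusted p = 0.623). Single cells carried much of some *Slc2a3* sums. In the negative class of 31 a cell with 19.8 CPM of *Il1b*, just under the cut, had 4624 CPM of *Slc2a3*. The other cells of that class had at most 355.0 CPM. In the positive class of 40 the highest cell had 7313 CPM. *Slc2a1* read 45.6, 56.4, 0, 32.2, 0.833 and 0.13 CPM in the positive and 6.51, 0.0964, 0.14, 3.54, 0 and 0 CPM in the negative sums, higher in 5 of 6 captures, with a log2 difference of 4.29 ± 2.23 (adjusted p = 0.644). That count of captures rests in part on single cells. In 32 and 38 a single cell had *Slc2a1* reads, and in 31 a single cell held 1330 of them. Neither carrier passed the threshold, and neither pair of classes was free of overlap.

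edgeR called 1 of 7207 genes in this comparison (0.0139%), *Il1b* itself, which defines the class, with 583 genes at an unadjusted p under 0.05. DESeq2 called *Slc2a3* (adjusted p = 3.15e-10) and *Slc2a1* (adjusted p = 0.0137) while calling 21.5% of all genes. Without capture 31 edgeR also called *Slc2a3*, with a log2 difference of 6.03 (adjusted p = 0.0201, against 0.331 to 0.55 without any other capture), and without the filter on low counts it called it at 5.198 (adjusted p = 9.85e-04). The other log2 differences were 1.42 ± 1.35 for *Hk2*, -0.84 ± 1.65 for *Pgk1*, 0.54 ± 0.58 for *Pkm*, -0.25 ± 0.81 for *Hk3*, and within 0.11 of 0 for *Gapdh*, *Eno1* and *Ldha*. *Pfkl* was not tested and was lower in the positive sum of the captures that had it, with 0 to 1.48 CPM against 0 to 21.01. The median over the 9 members was 0.06, against -0.52 over all genes tested. Again no pathway list held a call. Of the other glucose carriers listed 1 was tested, and 5 of 7 pentose phosphate enzymes and 5 of 6 glycogen genes had a negative log2 difference.

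**Figure D4:**
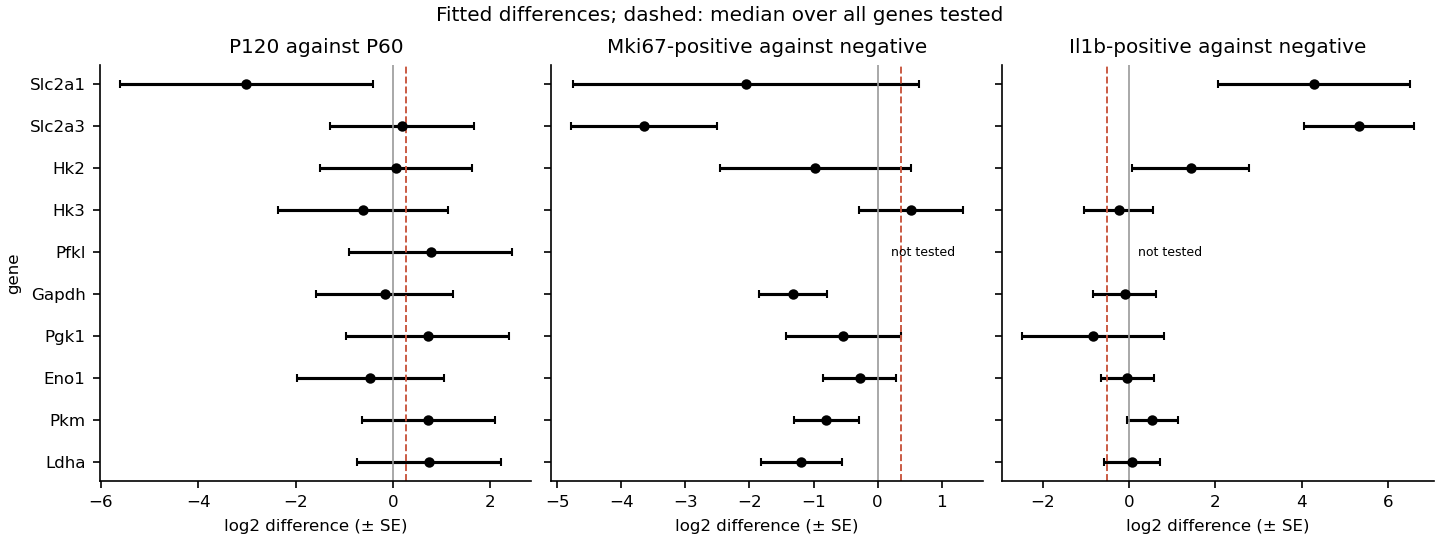
Points give the fitted log2 difference of each gene with its SE for P120 over P60 (left), *Mki67*-positive over negative (middle) and *Il1b*-positive over negative (right), and the dashed line the median over all genes tested. No point passed the adjusted threshold; *Slc2a3* lies at -3.64 in the middle panel and 5.33 in the right one.

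The share of cells with a read at equal depth was also compared between *Il1b* classes, with no test. *Slc2a3* had a read in 59% ± 30.3 of *Il1b*-positive and 24.4% ± 32.8 of negative cells (SD over 6 captures), higher in 5 of 6. *Ldha* had a read in 47.02% ± 16.02 of positive and 75.0% ± 15.6 of negative cells and *Gapdh* in 67.4% ± 17.5 and 86.9% ± 14.8, both lower in 6 of 6 captures. *Hk3* had a read in 31.8% ± 11.7 and 57.2% ± 18.5, lower in 5 and higher in 0 of 6. *Hk2*, at 44.2% ± 23.1 and 51.99% ± 18.3, was higher in 3 captures and lower in 2. *Pgk1* had a read in 31.4% ± 26.99 and 52.6% ± 26.5, *Eno1* in 54.1% ± 27.02 and 75.1% ± 13.2, and *Pkm* in 83.3% ± 17.4 and 93.5% ± 9.27, each higher in 2 captures and lower in 4. *Slc2a1*, at 8.98% ± 9.53 and 5.24% ± 7.76, was higher in 4 and lower in 1. *Pfkl* had no thinned read in any of the 96 *Il1b*-positive cells, where 3 counts would be a share of 3.12% and the exact interval reaches 3.77%, and a read in 7 of the 68 negative cells. This limits cells with a read at 50000 reads only, since without thinning the positive cells of capture 31 had *Pfkl* reads (1.48 CPM). The median number of genes was 1093 ± 409 in positive and 1896 ± 292 in negative cells, lower in 6 of 6, beside the lower shares of *Ldha*, *Gapdh* and *Hk3*. Its part in them was not tested.

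Cells were also split by both genes and pooled over captures, so these shares mix capture with class, and cells of a capture are not replicates. Of the 77 cells positive for *Il1b* alone, 16.9% had a thinned read of *Hk3*, against 54.5% of cells positive for *Mki67* alone, 52.6% of cells positive for both and 54.3% of cells positive for neither. *Pgk1* had a read in 15.6% of the cells with *Il1b* alone and in 42.4% to 52.6% of the other classes, *Eno1* in 33.8% and 57.9% to 72.7%, and *Ldha* in 29.9% and 62.9% to 75.8%. *Hk2* had a read in 63.6% and 57.9% of the cells of the classes with *Mki67* and 31.4% and 24.7% of those without. *Slc2a3* was most frequent in cells positive for both, with 68.4% of 19 cells (interval from 43.4 to 87.4), and had a read in 38.96% of cells with *Il1b* alone, 25.7% with neither and 24.2% with *Mki67* alone. *Slc2a1* lay between 2.86% and 15.8%. The 6 captures with both classes held 69 of the 96 *Il1b*-positive cells, and the other captures 27. Within those 6 captures, a count added after seeing the data, the cells with *Il1b* alone numbered 53, and 22.6% of them had a read of *Hk3*, 16.98% of *Pgk1*, 41.5% of *Eno1*, 35.8% of *Ldha* and 34% of *Hk2*, against 60%, 53.3%, 76.7%, 70% and 33.3% of the 30 cells with neither. In the 24 cells with *Il1b* alone from other captures these shares were 4.17%, 12.5%, 16.7%, 16.7% and 4.17%, all lower than in the 6 captures. A median cell had 762 genes in the class with *Il1b* alone, 1391 with neither, 2098 with both and 2261 with *Mki67* alone.

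**Figure D5:**
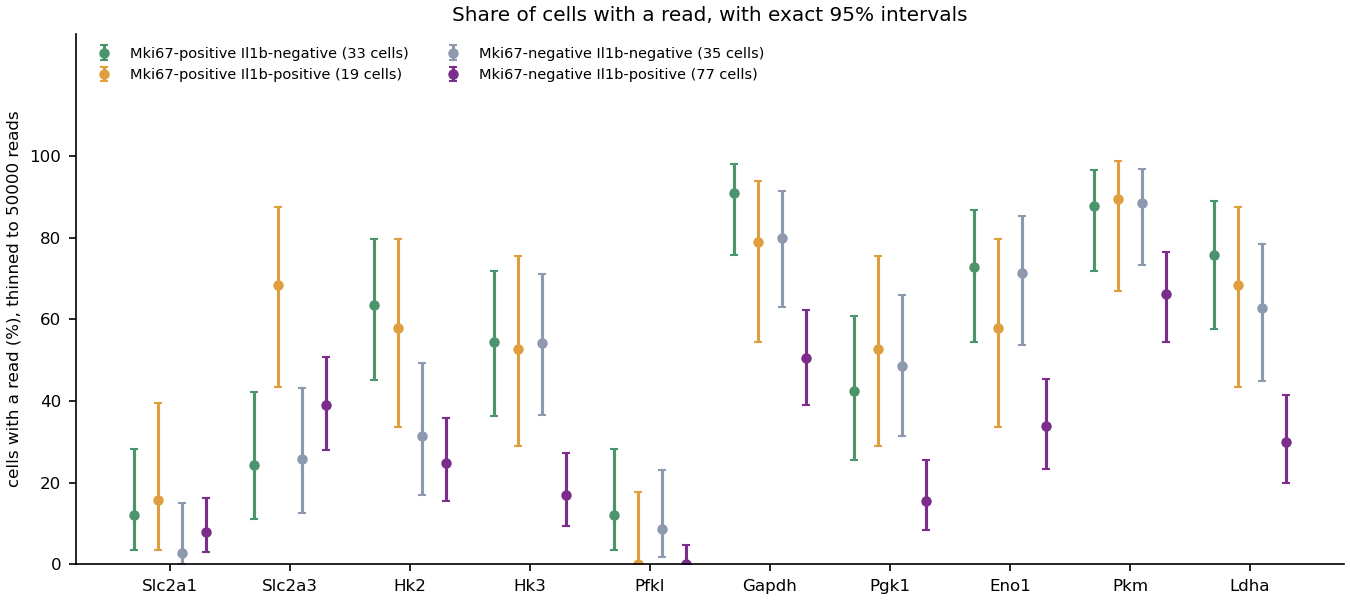
Points give the percentage of cells with a read of each gene after thinning to 50000 reads, with exact 95% intervals, in the classes set by *Mki67* and *Il1b* (33, 19, 35 and 77 cells). Cells positive for *Il1b* alone lie lowest for *Hk3*, *Gapdh*, *Pgk1*, *Eno1*, *Pkm* and *Ldha*, and *Slc2a3* is highest in cells positive for both.

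No difference in isoform share between classes passed its test, and with these captures none could have passed by itself. *Slc2a3* made up 31.3% of the carriers in *Mki67*-positive cells of 9c and 26.2% in those of 28, and 99.8% or more in those of the other 4 captures, for a mean of 76.2% ± 36.8 against 96.4% ± 5.21 in negative cells (SD, n = 6). That difference of -20.2 points (-9.57 without capture 28, -26.3 without 31) had an exact sign-flip permutation p of 0.438 (adjusted p = 0.571). Of the 14 *Mki67*-positive cells of 28, the highest for *Slc2a1* had 1841 and 69.7 CPM, and the rest had at most 2.38 CPM. Between *Il1b* classes the *Slc2a3* share was 90.9% ± 12.1 in positive and 85.4% ± 31.8 in negative cells (n = 5 captures, exact permutation p = 0.875, adjusted p = 0.875; the smallest possible p with 5 captures was 0.0625, so this test could not pass). *Hk3* made up 76.5% ± 24.8 of the hexokinases in *Mki67*-positive and 53.2% ± 33.8 in negative cells, higher in 4 of 6 captures (difference 23.3 points, 12.8 without capture 28 and 34.2 without 32, exact permutation p = 0.219, adjusted p = 0.571). It made up 54.2% ± 34.9 in *Il1b*-positive and 72.5% ± 18.7 in negative cells, higher in 2 of 6 captures (difference -18.3 points, -7.46 without capture 28 and -30.8 without 38, exact permutation p = 0.344, adjusted p = 0.571). The smallest possible p with 6 captures was 0.0313, which would not pass by itself after adjustment over the 6 share tests. No conclusion is drawn from these tests. In capture 28 the *Hk3* share was 83.9% in *Mki67*-positive and 8.22% in negative cells, and in capture 32 it was 26.8% and 57.8%, so single captures went opposite ways. The lower share of each held a cell with far more *Hk2* than the rest. It had 3889 CPM of *Hk2* and 0.349 of *Hk3* in the negative class of 28. In the positive class of 32 it had 4282 CPM of *Hk2* and no *Hk3*.

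Across the thinned cells the members were weakly related to each other. The cells share captures and base complexity, so Spearman's rho is given as a description. Over the 45 pairs of members the median rho was 0.19, with a range from -0.06 to 0.44, and 10 pairs were above 0.3. All 10 joined *Eno1*, *Pkm*, *Pgk1*, *Gapdh*, *Ldha* or *Hk3*, led by *Eno1* with *Pkm* (0.44), *Pgk1* (0.38) and *Hk3* (0.38). The isoform pairs gave 0.08 for *Slc2a1* and *Slc2a3* and 0.20 for *Hk2* and *Hk3*. Against *Mki67* the highest was *Hk2* with 0.31, followed by *Hk3* with 0.26 and *Ldha* with 0.22, and *Slc2a3* had -0.0011. Against *Il1b* rho was -0.42 for *Eno1*, -0.38 for *Ldha*, -0.35 for *Pgk1*, -0.34 for *Hk3* and -0.32 for *Hk2* and *Gapdh*, but 0.07 for *Slc2a3* and 0.03 for *Slc2a1*.

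The genes most like each isoform were taken from 1552 genes with a read in at least 25% of the thinned cells. *Serpinb1a*, which encodes an inhibitor of neutrophil serine proteases, was first for both hexokinases, with a rho of 0.52 for each. For *Hk2* it was followed by *Anxa3* (0.47) and *Tmed3* (0.45), and for *Hk3* by *Rsu1* (0.48) and *Dstn* (0.47). *Slc2a3* had no gene above 0.31, its first being *Tnfrsf1a*, a receptor of tumour necrosis factor, *Far1* and *Mmp8*, a neutrophil collagenase. *Slc2a1* had *Dnajb9* (0.30), *Atp6v1a* (0.30) and *Cdc42se1* (0.29).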

How the data were processed

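Full-length cDNA of single GFP+ cells was sequenced without molecular identifiers. As deposited, the table holds raw counts of reads per gene that the authors made with STAR v2.5 on GRCm38 (mm10) with the vM11 annotation, to which EGFP had been added. Before deposit the authors had removed unhealthy cells, outliers by expression, and cells with endothelial transcripts. The authors' second table gives, as deposited, the uniquely mapped read count, the isolation (capture) and the sequencing run of each cell; its 1 column of GFP intensity was not used. RSEM values and other material of the study were not analysed here. The 92 spike-ins were left out of library sizes, and symbols, positions and transcript lengths came from GENCODE vM21 of the same build.

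Counts were summed over the cells of a capture, or over a class of cells within a capture, and tested with edgeR 4.0.16 (TMM, filterByExpr, quasi-likelihood test, Benjamini-Hochberg adjustment, threshold 0.05), the capture being a block between classes. The SE of a log2 difference was its size divided by the square root of F. DESeq2 1.42.0 was an alternative. Classes used cells with at least 50000 reads and 20 CPM of *Mki67* or *Il1b*, and captures with at least 3 cells of each class. Shares of a pair used reads per length of the longest coding transcript in captures with at least 20 reads, with exact permutation tests in scipy 1.17.1. Shares of cells were taken after thinning to 50000 reads with a fixed seed. Copies were found with blastn 2.17.0 (at least 90% identity over 300 bases). The fitting script was tested on simulated data with known changes, which tests the script and not how well the model describes these captures.

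The members, gene lists and classes were chosen with earlier results of these data known. The 10 members, *Mki67* and *Il1b* were always named, pathway genes where they passed the threshold, and the 3 genes most like each isoform by Spearman's rho. The labels do not tie captures to separate animals beyond the pools, so p-values measure the spread between captures. Sequencing runs held P60 cells alone for 9c, 10c, 17c, 19c, 20c and 21c, and both ages for 31, 40, 28, 32, 36 and 38.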

Additional observations from a re-analysis of the deposited data

Results flagged for a closer look

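In 71 groups of 4 to 10 captures, 13 values stood apart from the rest of their group by Dixon's 95% criterion. Its rate of about 1 in 20 groups by chance holds for independent, normally distributed values. These groups hold skewed levels with zeros, bounded shares and the same captures repeatedly, so no excess over chance can be read from the count.

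For the carriers these were *Slc2a1* in capture 21c among P60 captures (113.9 CPM) and in capture 28 among P120 captures (14.4 CPM), the *Slc2a3* share of the carriers in capture 28 among P120 captures (97.98%) and in *Il1b*-negative cells of 9c (28.5%), and *Slc2a3* in *Il1b*-negative cells of capture 31 (1162 CPM).

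For the hexokinases they were *Hk2* in capture 17c among P60 captures (1199.5 CPM), *Hk2* in *Mki67*-positive cells of capture 32 (783.8 CPM) and the *Hk3* share in the same cells (26.8%). *Ldha* in these cells of capture 32 read 1074 CPM.

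For *Pfkl*, which few cells showed, they were capture 32 among P120 captures (9.70 CPM), *Mki67*-positive cells of capture 31 (12.9 CPM), *Il1b*-positive cells of capture 31 (1.48 CPM) and *Il1b*-negative cells of capture 32 (21.01 CPM).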

How the results depend on the processing

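No member passed between ages under any alternative. Genes called between ages numbered 1 with RLE normalization and with cells thinned to one depth, 5 with total counts only, 2 in captures of shared sequencing runs, 22 without a filter on low counts and 1 to 16 when a capture was left out (1 without 10c, 2 without 36, 16 without 21c), against 10. RLE moved the median over all genes from 0.26 to -0.10. Between *Mki67* classes the calls numbered 16 with total counts only and with 1 read as positive, 15 with at least 5 cells in each class, 1 with capture and run as block (an alternative chosen after seeing the data), 97 without the filter, 1933 with DESeq2 (2 members) and 6 to 69 when a capture was left out (6 without 9c, 10 without 31, 11 without 28, 14 without 40, 69 without 38), against 38; the median over all genes moved from 0.37 to 0.98 with total counts only, 2.16 with 1 read as positive and -0.21 with no capture block. Between *Il1b* classes they numbered 4 with RLE, 8 with at least 5 cells in each class and with no capture block, 27 with thinned cells, 58 without the filter (1 member), 0 with 1 read as positive (260 genes at an unadjusted p under 0.05 by edgeR), 1546 with DESeq2 (2 members) and 1 to 8 when a capture was left out (4 without 31, 8 without 40), with 1 member, *Slc2a3*, called without 31 and 0 otherwise.

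Member log2 differences that changed sign without passing any threshold were, between ages, *Slc2a3* -0.060 with RLE and -0.059 with DESeq2, *Hk2* -0.35 with both, *Slc2a3* -0.42 and *Pgk1* -0.37 thinned, *Pgk1* -0.0023 with total counts only, and *Slc2a3* -0.57, *Hk2* -0.53, *Pfkl* -0.32, *Pgk1* -0.51 and *Ldha* -0.45 in shared runs. Between *Mki67* classes they were *Pgk1* 0.10 and *Eno1* 0.36 with total counts only, *Pgk1* 0.26 thinned, *Hk2* 0.85 with at least 5 cells, and *Slc2a3* 2.12, *Hk2* 0.25, *Pgk1* 2.33 and *Ldha* 0.23 with 1 read as positive. Between *Il1b* classes they were *Ldha* -0.43 with total counts only, -0.24 thinned and -0.21 with capture and run as block, *Pgk1* 0.12 with that block and 0.11 with no block, *Gapdh* 0.33 with no block and 0.43 with at least 5 cells, and *Hk3* 1.26, *Gapdh* 0.26 and *Eno1* 0.72 with 1 read as positive.

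Leaving out a capture gave ranges that crossed 0 for *Gapdh* (-0.33 to 0.061), *Hk2* (-0.28 to 0.79), *Pfkl* (-5.69 to 1.20), *Pgk1* (-0.27 to 1.06) and *Slc2a3* (-0.26 to 0.55) between ages, *Hk2* (-1.95 to 0.083) between *Mki67* classes, and *Eno1* (-0.16 to 0.13), *Gapdh* (-0.49 to 0.43), *Hk3* (-0.43 to 0.085), *Ldha* (-0.17 to 0.30) and *Pgk1* (-1.82 to 0.050) between *Il1b* classes. The difference in *Slc2a3* share between *Il1b* classes was -7.86 points with thinned cells and -6.84 to 13.6 points when a capture was left out, against 5.49; the other 5 share differences kept their sign, with ranges on leaving out a capture of 4.86 to 8.98 (*Slc2a3*) and -29.0 to -9.58 (*Hk3*) between ages, -26.3 to -9.57 and 12.8 to 34.2 between *Mki67* classes, and -30.8 to -7.46 (*Hk3*) between *Il1b* classes. The cause of these changes was not tested. Classes were compared in pairs within captures; without that block *Slc2a3* moved from -3.64 to -2.07 by *Mki67* and from 5.33 to 2.52 by *Il1b*. Between ages no pairing by number was made, since the labels number cells, not captures; captures of shared sequencing runs are given above. With 4 to 8 captures a group and at most a few deep cells in some, small differences were not detectable.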
